A study of Schizosaccharomyces pombe with 4 samples.

Results

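The genes that build ribosomes in the fission yeast *Schizosaccharomyces pombe* were examined in RNA from *rrp6*Δ and wild-type (WT) cells. They were taken by name: every protein-coding gene called utp, rrp, nop, noc, nog, imp, rpf, nip, ebp or brx followed by a number, without *rrp6* itself. This gave 61 of 5129 protein-coding genes. Rrp6 is a 3′-5′ exonuclease of the nuclear exosome, the complex that trims and degrades RNA from its 3′ end. The strains were a deletion of *rrp6* and wild type, with 2 biological replicates each. The labels give no further allele or treatment. The methods name YES or EMMG medium and harvest at a set optical density for the strains of the study, and do not say which medium these cultures had. The construct that removed the gene is not given in the sources used here. Total RNA received ERCC spike-in RNA, was depleted of rRNA and was made into strand-specific libraries. Values are normalized read counts, which are whole reads multiplied by a factor for each library derived from the spike-in.

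Ribosome assembly starts in the nucleolus on the long pre-rRNA. The UTP-A, UTP-B and UTP-C complexes, the U3 small nucleolar RNP (snoRNP) and further factors form the small subunit processome, in which the small subunit rRNA is folded, modified and cleaved. A separate set of factors builds the large subunit and carries it to the nuclear pore. The exosome takes part by trimming pre-rRNA and snoRNA ends.

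By their known proteins, 18 of the 61 genes act on the large subunit, 14 are further small subunit factors, 6 belong to snoRNPs or the IMP proteins, and 5, 4 and 3 encode UTP-A, UTP-B and UTP-C subunits. The name pattern also took in 7 core subunits of the exosome, which are partners of Rrp6. It took in 4 genes whose products lie outside ribosome biogenesis, so that the name holds for 50 genes by direct role. These 4 are *imp1*, an importin alpha, *imp2*, an F-BAR protein of cytokinesis, *rrp1*, a DNA helicase, and *rrp2*, a DNA translocase and SUMO-targeted ubiquitin ligase.

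The libraries held 75295117 and 64913330 reads over all transcripts in *rrp6*Δ, against 68813840 and 82419985 in WT. Each member had at least 1041 reads in every library. *rrp6* had 7.38 and 8 normalized read counts in *rrp6*Δ, against 2352 and 2842 in WT, a check of the labels. A yeast culture can hold cells in other states: of the 5 markers of cells entering meiosis, *mei4* and *spo5* rose (log2 fold change 2.62 and 3.14), *mei2* and *ste11* fell (−0.82 and −0.46) and *spo6* did not pass the test. All 5 markers of M cells rose, by 0.33 to 2.37, and of the 3 P cell markers only *map2* did (0.92). The summed normalized read counts were 4196 and 4534 in *rrp6*Δ, against 4849 and 4448 in WT for the meiosis list, 2967 and 3058 in *rrp6*Δ, against 2262 and 2206 in WT for the M list and 669 and 705 in *rrp6*Δ, against 663 and 716 in WT for the P list. None of these genes was at 0. The paper cites a known role of the nuclear exosome in the decay of meiotic transcripts in mitotic cells. The meiosis markers therefore need not mark cell state in *rrp6*Δ. The part of all these markers in the values of the ribosome genes was not tested. In bulk RNA more cells of a kind and more RNA per cell cannot be told apart.

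One member, *nog2*, carries a small nucleolar RNA in its intron, and the reads of that RNA count in its whole gene. The gene encodes a GTPase that is needed for the large subunit to mature and leave the nucleus. It lies on the minus strand of chromosome I, from 2734031 to 2736306. Its intron runs from 2734928 to 2735331 (404 nt), and snR191 (128 nt) occupies 2735048 to 2735175 within it, 156 nt after the first exon and 120 nt before the second. The sequences below are printed 5′ to 3′ on the minus strand of the RefSeq assembly ASM294v3, to show what the reads assigned to each part come from. Capitals mark the 5′ splice site, the snoRNA and the last bases of the intron.
start of the *nog2* intron, chrI:2735312-2735331: GTAAGTcatttttgttttta
snR191 and its flanks, chrI:2735028-2735195: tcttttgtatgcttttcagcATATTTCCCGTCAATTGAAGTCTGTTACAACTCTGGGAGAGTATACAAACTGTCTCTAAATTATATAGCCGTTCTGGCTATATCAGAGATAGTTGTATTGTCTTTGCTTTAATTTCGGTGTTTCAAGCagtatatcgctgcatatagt
end of the *nog2* intron, chrI:2734928-2734947: cttttttctaactttttTAG

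The question of the comparison was which transcripts differ in cells without Rrp6. Over its coding sequence alone *nog2* was called higher by more than 2-fold, as described below. Counted over whole gene spans, the 61 genes differed little. None was called higher or lower by more than 2-fold (limma on log2 values, Benjamini-Hochberg adjusted p under 0.05), where 6.39% of the 5073 protein-coding genes tested were called higher and 0.591% lower. By adjusted p alone, 21 members (34.4%) were higher, against 46.7% of protein-coding genes, and 1 (1.64%) was lower, against 7.08%. The remaining 39 did not pass the test. DESeq2 and edgeR on the recovered reads with the deposited factors likewise called none by more than 2-fold, and 22 and 23 higher by adjusted p. The count by adjusted p was 1 with limma without the trend, 12 without WT replicate 1, 40 without WT replicate 2, 12 without *rrp6*Δ replicate 1 and 5 without *rrp6*Δ replicate 2.

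The changes of the members lay in a narrow range. Their median log2 fold change was 0.20, with an interquartile range of 0.14 to 0.31, beside a median of 0.26 and a range of 0.05 to 0.46 over protein-coding genes. Ranges of this width were not particular to the members: the interquartile range was 0.17 wide for them, 0.11 for 34 other small subunit genes, 0.14 for 43 other large subunit genes, 0.22 for 129 ribosomal protein genes, 0.30 for 18 RNA polymerase I genes, 0.27 for 8 other snoRNP genes and 0.41 for protein-coding genes. In 59 of the 61 the change was smaller than 0.5 in size, and 19 lay above the median of protein-coding genes. The median over members was 0.06 to 0.34 across the 4 pairs of 1 *rrp6*Δ and 1 WT library, and 0.14 to 0.37 over protein-coding genes. Both *rrp6*Δ libraries were above both WT libraries for 38 members (62.3%, against 65.3% of protein-coding genes) and below them for *rrp5* and *nop4* (3.28%, against 12%).

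These directions rest on the spike-in scale. Trimmed mean of M values (TMM) factors over all transcripts moved the median of all transcripts by −0.54, which placed the median of the members at −0.34 and that of protein-coding genes at −0.28. With that scale no member was higher and 50 were lower by adjusted p. TMM factors from protein-coding genes gave 5 higher and 9 lower, and DESeq2 with its own size factors gave none higher and 55 lower. The distance between the members and protein-coding genes was −0.06 under the deposited, the TMM, the total-count and the DESeq2 scales, and 0.04 under quantile normalization. Statements on single genes below use the deposited scale, on which the median protein-coding gene stood at 0.26.

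**Figure D1:**
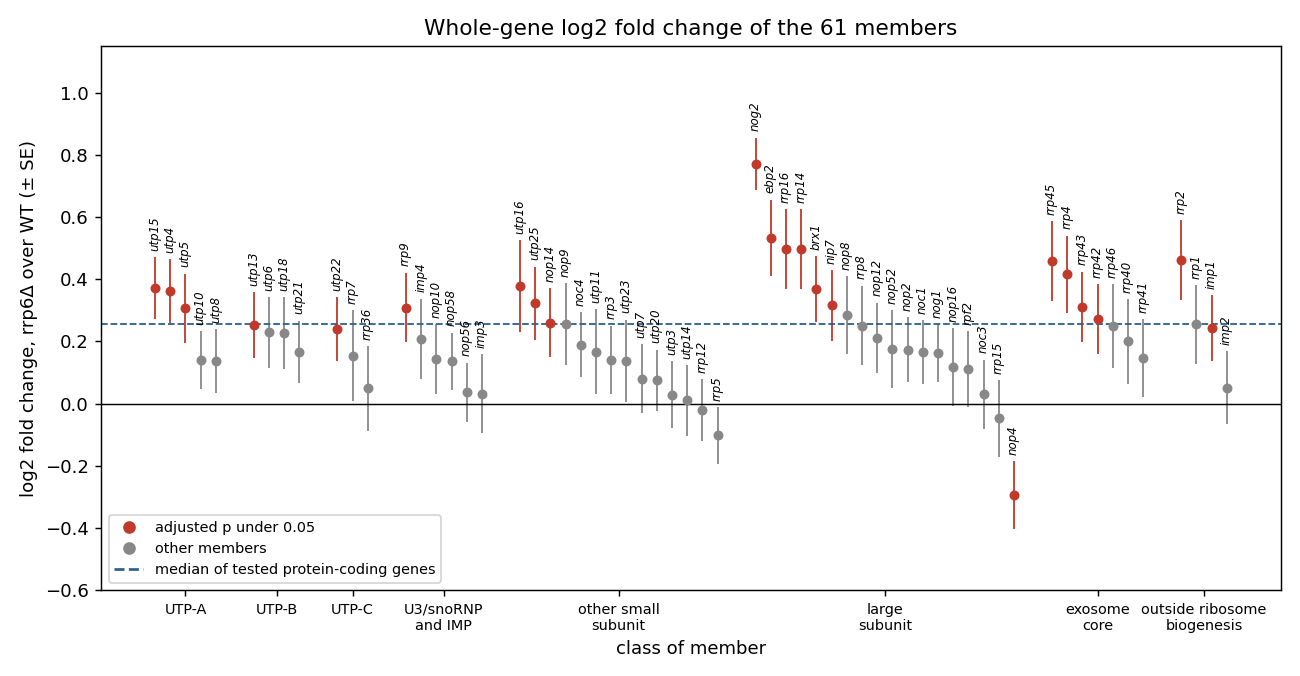
Log2 fold change of each of the 61 members over the whole gene, *rrp6*Δ over WT, with its standard error, by class. Red points passed an adjusted p of 0.05; the dashed line is the median of the tested protein-coding genes (0.26). Most members lie between 0 and 0.5, *nog2* stands highest at 0.77 and *nop4* lowest at −0.29.

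**Figure D2:**
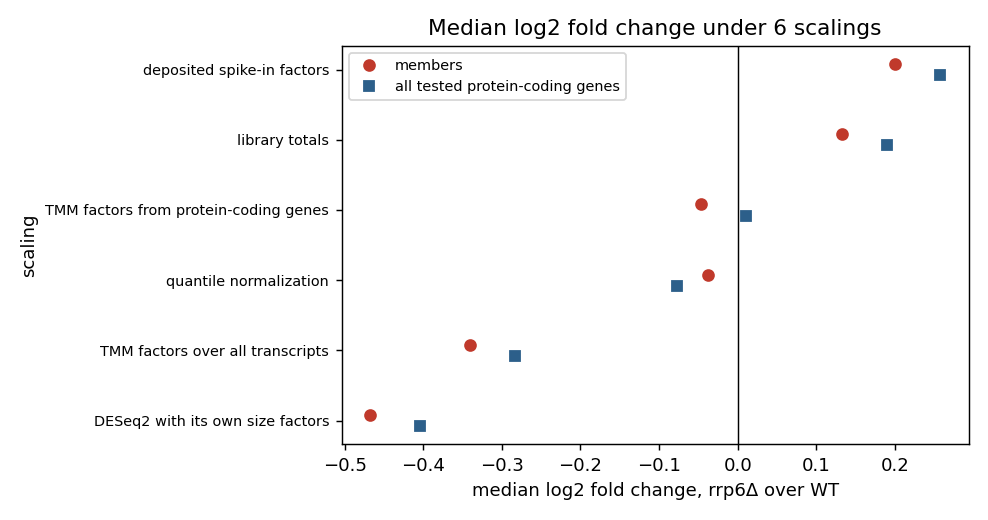
Median log2 fold change of the members (circles) and of the tested protein-coding genes (squares) under 6 scalings of the same reads. The member median runs from 0.20 on the deposited scale to −0.47 with the size factors of DESeq2, and the protein-coding median moves with it.

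As a share of the reads on protein-coding genes, which does not depend on the scale, the members took 1.04% in both *rrp6*Δ libraries, against 0.868% and 0.893% in the WT libraries. The groups did not overlap. Without *nog2* the share was 0.886% and 0.901% in *rrp6*Δ, against 0.779% and 0.810% in WT, so that the order held for the other 60 genes as a sum. With 2 libraries a strain, an exact permutation test cannot go below p = 0.333 for such a single value. Shares of other gene sets were not compared, apart from that of the ribosomal protein genes given below, in which the strains overlapped. The share is a sum over reads, in which highly expressed genes weigh most. The median log2 fold change of the members on the deposited scale, 0.20, lay below the 0.26 of protein-coding genes.

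The classes below hold only genes that the name pattern took in, so subunits under other names are not counted in them. Their counts stand beside 46.7% of protein-coding genes that were higher and 7.08% that were lower by adjusted p. Both *rrp6*Δ libraries were above both WT libraries in 65.3% of protein-coding genes. Differences from these shares were not tested. UTP-A binds the start of the pre-rRNA first. All 5 of its genes among the members had both *rrp6*Δ libraries above both WT libraries, and 3 rose by adjusted p, *utp15*, *utp4* and *utp5*. *utp15* had 6815 and 7246 normalized read counts in *rrp6*Δ, against 5359 and 5511 in WT (log2 fold change 0.37, standard error 0.10, adjusted p = 0.0033). It was the largest change in the class and still below 2-fold, and it did not pass the test without *rrp6*Δ replicate 2 (0.33, adjusted p = 0.061). *utp8* had 6920 and 7220 in *rrp6*Δ, against 6042 and 6836 in WT (0.14, standard error 0.10, adjusted p = 0.24). *utp10*, a large scaffold protein and the most highly expressed of the 5 per length, had 18768 and 20871 in *rrp6*Δ, against 18399 and 17512 in WT (0.14, standard error 0.09, adjusted p = 0.18).

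UTP-B joins next, and its 4 genes among the members moved by nearly the same amount, 0.17 to 0.25. Of these 4, only *utp13* passed the test, with 4440 and 4892 in *rrp6*Δ, against 3851 and 3968 in WT (0.25, standard error 0.11, adjusted p = 0.041). *utp21*, the highest in level and the lowest in change, had 6841 and 7413 in *rrp6*Δ, against 6221 and 6467 in WT (0.17, standard error 0.10, adjusted p = 0.14). The call of *utp13* was lost without WT replicate 1 (0.23) or either *rrp6*Δ replicate (0.32 and 0.18). *utp6* and *utp18* stood at 0.23. In all 4 genes both *rrp6*Δ libraries were above both WT libraries, as they were in 65.3% of protein-coding genes.

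The UTP-C genes among the members were *utp22*, *rrp7* and *rrp36*. *utp22* had 5751 and 6382 in *rrp6*Δ, against 5109 and 5147 in WT (0.24, standard error 0.10, adjusted p = 0.045). *rrp7* had 1542 and 1631 in *rrp6*Δ, against 1204 and 1688 in WT (0.15, standard error 0.15, adjusted p = 0.35). *rrp36* had 1083 and 1062 in *rrp6*Δ, against 931 and 1153 in WT (0.05, standard error 0.14, adjusted p = 0.75). The WT libraries of *rrp7* and *rrp36* lay on both sides of the *rrp6*Δ libraries. The call of *utp22* was lost without WT replicate 1 (0.24) or either *rrp6*Δ replicate (0.32 and 0.17).

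Among the snoRNP and IMP members, only *rrp9*, which encodes a protein specific to the U3 snoRNP, passed the test. It had 3827 and 4491 in *rrp6*Δ, against 3269.9 and 3423.8 in WT (0.31, standard error 0.11, adjusted p = 0.021), and did not pass without *rrp6*Δ replicate 2 (0.19). *nop10*, a subunit of box H/ACA snoRNPs, which direct pseudouridylation, had 9022 and 9075 in *rrp6*Δ, against 7262 and 9250 in WT (0.14, standard error 0.11, adjusted p = 0.26). The box C/D proteins, which direct 2′-O-methylation, gave 0.14 for *nop58* and 0.04 for *nop56*. *imp3*, a U3-associated protein, had 1400 and 1438 in *rrp6*Δ, against 1281 and 1503 in WT (0.03, standard error 0.13, adjusted p = 0.83), and *imp4* gave 0.21. The strains overlapped in *nop10*, *nop56* and *imp3*.

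The 14 further small subunit factors had a median of 0.14. The 3 that rose by adjusted p were *utp16*, *utp25* (0.32) and *nop14* (0.26). *utp16* had 1737 and 1829 in *rrp6*Δ, against 1152 and 1631 in WT (0.38, standard error 0.15, adjusted p = 0.029). The 2 WT libraries of this gene lie far apart. The call was lost without WT replicate 1 (0.13) or either *rrp6*Δ replicate (0.42 and 0.34), and the value was 0.63 without WT replicate 2. *rrp5*, an RNA-binding protein that acts on both subunits in budding yeast and the highest of the class in level, had 18472 and 20425 in *rrp6*Δ, against 20955 and 20743 in WT (−0.10, standard error 0.09, adjusted p = 0.33). The values of *nop9*, *noc4*, *utp11*, *rrp3*, *utp23*, *utp7*, *utp20*, *utp3*, *utp14* and *rrp12* ran from −0.02 to 0.26, and none of them passed the test.

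Large subunit factors held both ends of the range. Of the 18 genes, 6 rose by adjusted p (*nog2*, *ebp2*, *rrp16*, *rrp14*, *brx1* and *nip7*) and *nop4* fell. *nop4*, whose homologue in budding yeast is an RNA-binding protein of the early large subunit particle, had 2480 and 2495 in *rrp6*Δ, against 2977 and 3120 in WT (−0.29, standard error 0.11, adjusted p = 0.024). It was the only member that fell. Without either *rrp6*Δ library the fall no longer passed the test (−0.29 and −0.30, adjusted p = 0.13 in both). The others were *nop8*, *rrp8*, *nop12*, *nop52*, *nop2*, *noc1*, *nog1*, *nop16*, *rpf2*, *noc3* and *rrp15*, at −0.05 to 0.28.

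The 7 exosome core genes among the members had a median of 0.27. Of these, 4 rose by adjusted p (*rrp45*, *rrp4*, *rrp43* and *rrp42*), beside 46.7% of protein-coding genes. *rrp45*, a subunit of the exosome ring, had 2096 and 2057 in *rrp6*Δ, against 1358 and 1680 in WT (0.46, standard error 0.13, adjusted p = 0.0040). *rrp43*, also of the ring, had 2474 and 2617 in *rrp6*Δ, against 2081 and 2018 in WT (0.31, standard error 0.11, adjusted p = 0.020). *rrp41* had 1370 and 1403 in *rrp6*Δ, against 1177 and 1333 in WT (0.15, standard error 0.12, adjusted p = 0.30). Without *rrp6*Δ replicate 1 the calls of *rrp45* (0.45) and *rrp43* (0.35) were lost, and that of *rrp43* also without *rrp6*Δ replicate 2 (0.27). *rrp45* was 0.31 without WT replicate 1. Values of the cap subunits were 0.42 for *rrp4* and 0.20 for *rrp40*, and *rrp46* gave 0.25.

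Of the 4 genes outside ribosome biogenesis, *rrp2* had 2147 and 2356 in *rrp6*Δ, against 1469 and 1817 in WT (0.46, standard error 0.13, adjusted p = 0.0040). *imp1* had 6978 and 7796 in *rrp6*Δ, against 5861 and 6636 in WT (0.24, standard error 0.11, adjusted p = 0.0498). *imp2* had 1791 and 1956 in *rrp6*Δ, against 1774 and 1841 in WT (0.05, standard error 0.12, adjusted p = 0.71), and *rrp1* gave 0.25 without passing the test. The call of *rrp2* was lost without *rrp6*Δ replicate 2 (0.39), and that of *imp1* without WT replicate 1 (0.15) or either *rrp6*Δ replicate (0.32 and 0.16). Leaving out the exosome and these genes left 15 of 50 higher and 1 lower by adjusted p, with a median of 0.17. Of protein-coding genes 46.7% were higher and 7.08% lower.

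*nog2* was the member that changed most. Its whole gene had 54961 and 53891 normalized read counts in *rrp6*Δ, against 32131 and 31644 in WT (0.77, standard error 0.08, adjusted p = 4.6e-07). Most of these reads were those of the snoRNA printed above. snR191 had 42436 and 40691 in *rrp6*Δ, against 26968 and 25806 in WT (0.66, standard error 0.09, adjusted p = 4.0e-06), which was 77.2% and 75.5% of the reads of the gene in *rrp6*Δ, against 83.9% and 81.6% in WT. The level of the gene as deposited is thus mainly a level of snR191. The rise of snR191 did not pass the test with TMM factors over all transcripts (0.11) and was −0.0079 with the size factors of DESeq2.

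Both coding pieces of *nog2* rose. A read that spans both pieces counts in each, and so more than once in their sum. The first exon piece had 5903 and 6289 in *rrp6*Δ, against 3083 and 3731 in WT (0.85, standard error 0.11, adjusted p = 4.7e-05). The second had 8757 and 9180 in *rrp6*Δ, against 3323 and 3578 in WT (1.38, standard error 0.09, adjusted p = 2.9e-07). Together they gave 1.14 (standard error 0.10, adjusted p = 2.5e-07), the only member called by more than 2-fold over the coding sequence, where 6.26% of protein-coding genes were called higher. None was called lower, against 0.671%. Under TMM factors over all transcripts this value was 0.60, past the test and below 2-fold. With the size factors of DESeq2 in limma the first exon gave 0.19 and did not pass.

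Ratios within a library do not depend on the scale. The second exon of *nog2* held 148% and 146% of the reads of the first in *rrp6*Δ, against 108% and 95.9% in WT. As a share of snR191 reads, the first exon held 13.9% and 15.5% in *rrp6*Δ, against 11.4% and 14.5% in WT, and the strains overlapped. The second exon held 20.6% and 22.6% in *rrp6*Δ, against 12.3% and 13.9% in WT. The whole coding sequence held 34.5% and 38.0% of the reads of snR191 in *rrp6*Δ, against 23.8% and 28.3% in WT. Both *rrp6*Δ libraries were above both WT libraries in each of these ratios but that of the first exon to snR191. A protein-coding gene hosted a snoRNA on its own strand in 11 cases, and *nog2*, the only member among the hosts, was also the only host whose coding sequence rose by more than 2-fold.

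The gene spans of the table reach past the coding sequence, and in *nop2* and *ebp2* most of the reads gained lay there. Reads outside the coding sequence could be separated for the 30 members with 1 coding piece, where 4 were called higher by more than 2-fold outside it (13.3%), against 16.2% of the 2362 such genes tested. None was called lower, against 0.677%. By adjusted p, 9 were higher (30%, against 50.3%) and none lower (against 3.81%). The 4 were *nop2*, *ebp2*, *rrp2* and *noc4*, and the first 3 have annotated 3′ parts of 3591, 2271 and 1346 nt beyond the stop codon. Such a part of over 1000 nt occurs in 5 members (also *rrp46* and *rrp42*) and in 8.46% of all genes, and the median over members was 194 nt. *ebp2*, *nop2* and *noc4* were chosen for description after their values were seen.

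*nop2* encodes an rRNA cytosine methyltransferase of the large subunit and lies on the minus strand of chromosome II, from 3671160 to 3676674. Its coding sequence had 7110 and 7633 normalized read counts in *rrp6*Δ, against 7632 and 8800 in WT (−0.15, standard error 0.10, adjusted p = 0.20). Outside it, the gene had 1975 and 2284 in *rrp6*Δ, against 214 and 226 in WT (3.27, standard error 0.13, adjusted p = 4.5e-09). The outside reads were 27.8% and 29.9% of the coding reads in *rrp6*Δ, against 2.80% and 2.57% in WT, a ratio that was 10.7 times higher in *rrp6*Δ.

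The whole-gene value of *nop2*, 0.17, thus joined a coding sequence without a called change and outside reads that rose. The table does not split those reads between the 5′ part (97 nt) and the 3′ part (3591 nt). XUT0395, a transcript on the same strand from 3671167 to 3672525, lies inside the 3′ part and had 632 and 709 in *rrp6*Δ, against 53.0 and 53.2 in WT (3.64, standard error 0.18, adjusted p = 4.5e-11). The opposite strand carries *spt16*, which encodes a subunit of the histone chaperone FACT, along 3307 nt. *spt16* had 5203 and 5750 in *rrp6*Δ, against 6186 and 7207 in WT (−0.29, standard error 0.11, adjusted p = 0.026). The *nop2* reads outside the coding sequence were 38.0% and 39.7% of the *spt16* reads in *rrp6*Δ, against 3.46% and 3.13% in WT.

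*ebp2* encodes a nucleolar protein needed for the large subunit rRNA to be processed, and lies on the plus strand of chromosome I, from 2012859 to 2016204. Its whole gene had 7976 and 8530 in *rrp6*Δ, against 4929 and 6588 in WT (0.53, standard error 0.12, adjusted p = 0.00095). The value was 0.32 without WT replicate 1 and 0.74 without WT replicate 2, and passed the test in both. The coding sequence alone gave 6187 and 6506 in *rrp6*Δ, against 4533 and 6203 in WT (0.26, standard error 0.13, adjusted p = 0.090). Outside it there were 1789 and 2024 in *rrp6*Δ, against 396 and 385 in WT (2.28, standard error 0.12, adjusted p = 2.3e-08).

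The call on the whole gene of *ebp2* was therefore not kept over its coding sequence. The outside reads of *ebp2* were 28.9% and 31.1% of its coding reads in *rrp6*Δ, against 8.73% and 6.2% in WT. In *rrp2* the outside reads were 272 and 311 in *rrp6*Δ, against 83.1 and 122 in WT (1.53, standard error 0.20, adjusted p = 2.5e-05), and its coding sequence gave 0.35 (adjusted p = 0.024). *noc4* rested on few reads, 17.2 and 21.0 in *rrp6*Δ, against 7.95 and 7.29 in WT (1.24, adjusted p = 0.0099). The values of *nop2*, *ebp2* and *rrp2* passed the test under the TMM, total-count and DESeq2 scales and with each library left out, while that of *noc4* did not pass with TMM factors over all transcripts (0.74), with the DESeq2 factors (0.62) or without either *rrp6*Δ replicate (1.38 and 1.11). Other transcripts on the same strand cannot be told apart from longer ones of the gene itself in these counts. Unlike *spt16*, the genes with long overlaps opposite *ebp2* and *rrp2* had no called change. *SPAC17H9.06c* overlaps *ebp2* by 2142 nt and gave −0.06 (adjusted p = 0.73). *nta1* overlaps *rrp2* by 4445 nt and gave 0.26 (adjusted p = 0.11). A link between outside reads and the opposite genes was not tested.

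**Figure D3:**
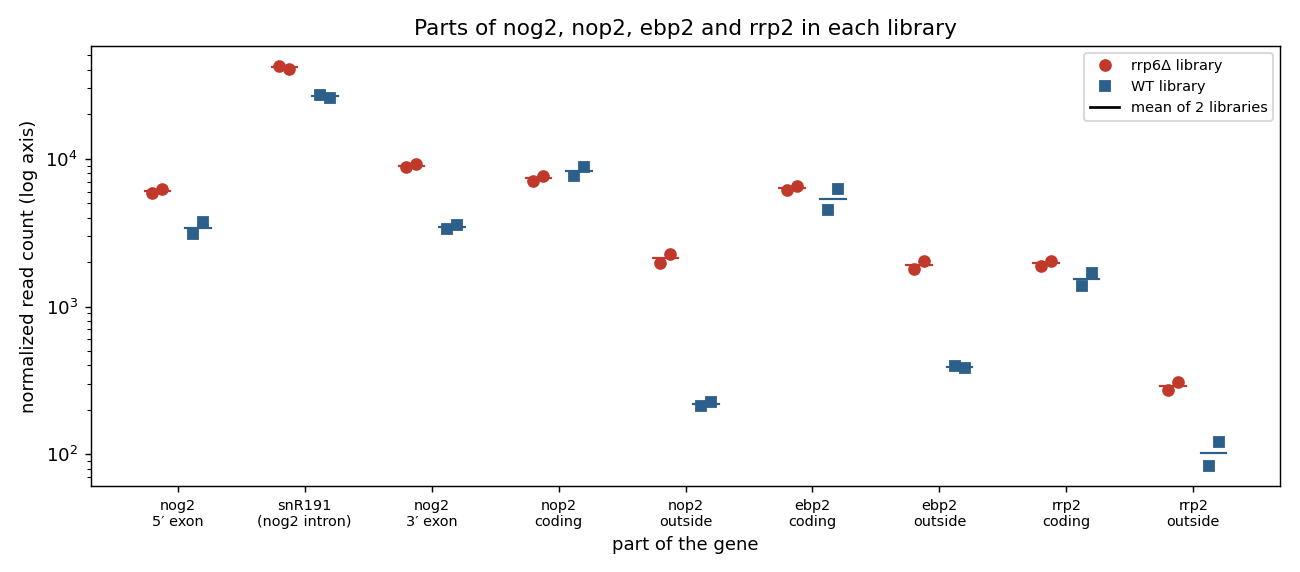
Normalized read count (log axis) of parts of 4 genes in each library, *rrp6*Δ circles left of WT squares, with bars at the mean of 2 libraries. For *nog2* the second exon separates further than snR191 does, and for *nop2*, *ebp2* and *rrp2* the strains lie further apart outside the coding sequence than within it.

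**Figure D4:**
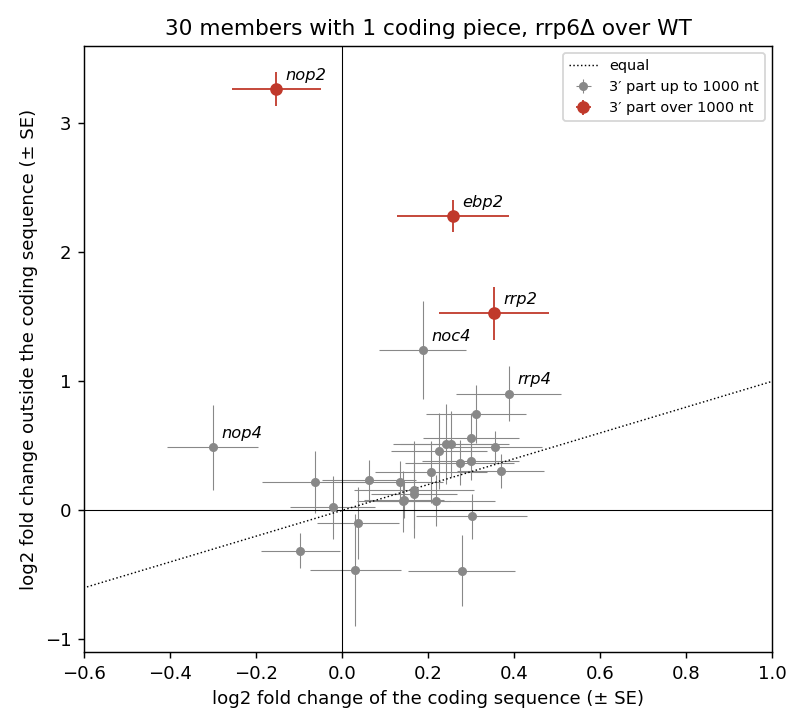
Log2 fold change outside the coding sequence against that of the coding sequence, with standard errors, for the 30 members with 1 coding piece. The dotted line marks equal values; *nop2*, *ebp2* and *rrp2* (red, 3′ part over 1000 nt) lie at 3.27, 2.28 and 1.53, far above it.

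For most members the choice of region mattered little. The coding sequence differed from the whole gene by at most 0.1 in 56 of 61, and the member median over coding sequences was 0.19, beside 0.23 over all genes. By adjusted p, 19 members were higher over the coding sequence (31.1%, against 41.4% of genes) and 1 lower (1.64%, against 7.74%). Calls were lost in 3 genes and gained in 1. Of the 111 coding pieces of members tested one by one, 4 were called higher by more than 2-fold (3.6%, against 5.49% of all pieces) and none lower (against 0.498%). By adjusted p, 27 pieces were higher (24.3%, against 33.5%) and 1 lower (0.901%, against 5.85%).

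These 4 pieces were the second exon of *nog2* and short first coding pieces of *utp16*, *rpf2* and *utp13*. The 38 nt first piece of *utp16*, whose homologue is a small subunit factor of budding yeast, had 59.1 and 78.0 normalized read counts in *rrp6*Δ, against 6.19 and 5.10 in WT (3.43, standard error 0.33, adjusted p = 3.9e-06). It lies on the minus strand of chromosome II, from 3651783 to 3651820. The pieces of *utp16* after it gave 0.33 and 0.28, and the short piece held 2.84% and 3.59% of the coding reads in *rrp6*Δ, against 0.441% and 0.256% in WT. A read that spans pieces counts in each of them.

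The strand opposite the members was also read in strand-specific libraries. Of the 61 genes, 31 (50.8%) overlap a non-coding transcript on the opposite strand, a share that is also 50.8% over protein-coding genes. The transcripts are CUTs, which the study defined from these same libraries as segments more than 2-fold enriched in *rrp6*Δ, XUTs, which accumulate without the cytoplasmic 5′-3′ exonuclease, annotated ncRNAs and ncTUs, further unannotated transcription units. Of the 54 tested, 46 were called higher by more than 2-fold and none lower. All 23 CUTs were among them, which their definition fixes and which is no independent evidence.

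Outside that class, 14 of 17 XUTs were called higher (82.4%, against 60.7% of all XUTs), and 8 of 12 annotated ncRNAs (66.7%, against 49.5%). Many of these overlap a CUT on the same strand and count the same reads, so that the CUT definition reaches them too. Leaving out all that do, a step chosen after seeing the data, left 5 of 8 XUTs (62.5%, against 36.3% of all such XUTs) and 4 of 6 annotated ncRNAs (66.7%, against 21.6%), too few to read a difference from. Under TMM factors over all transcripts 13 of the XUTs, annotated ncRNAs and ncTUs were called higher, beside 23 on the deposited scale. The counts were small next to the genes: the median transcript reached 1.65% of the count of its member in *rrp6*Δ, against 0.580% in WT.

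The annotated transcript with the highest count lay opposite *rrp15*, a large subunit factor. *SPNCRNA.655*, which overlaps CUT1987 on its strand, had 982 and 1002 in *rrp6*Δ, against 409 and 530 in WT (1.09, standard error 0.15, adjusted p = 6.3e-06), which was 64.5% of the count of *rrp15* in *rrp6*Δ and 29.5% in WT. Only part of that transcript, 694 nt, overlaps the gene, and *rrp15* itself gave −0.05. Opposite *nop9*, CUT2303 had 719 and 691 in *rrp6*Δ, against 134 and 201 in WT (2.10, standard error 0.18, adjusted p = 3.5e-08). *utp5-antisense-1* had 213 and 235 in *rrp6*Δ, against 86.6 and 108 in WT (1.21, standard error 0.20, adjusted p = 3.7e-05). By contrast *utp23-antisense-1* had 169 and 207 in *rrp6*Δ, against 159 and 149 in WT (0.28, standard error 0.19, adjusted p = 0.19).

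**Figure D5:**
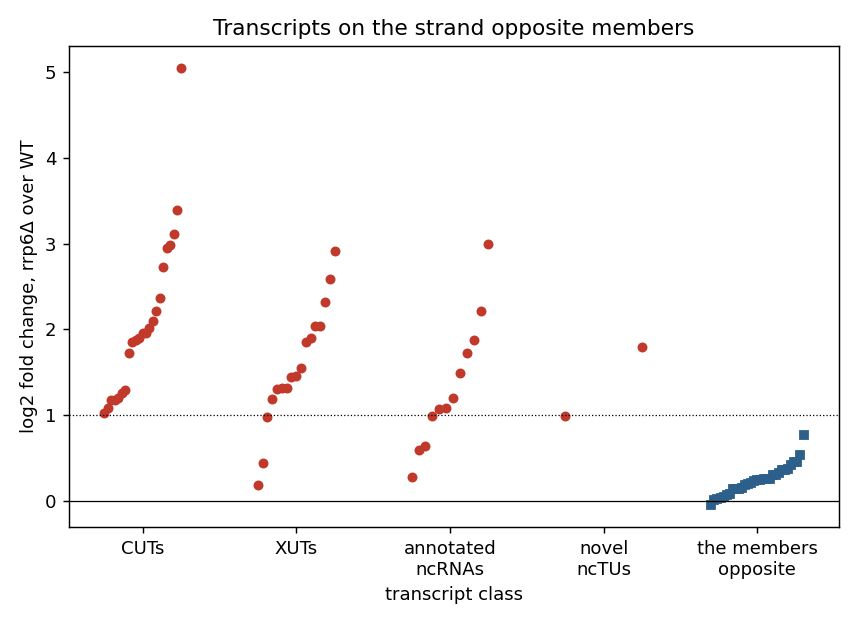
Log2 fold change, *rrp6*Δ over WT, of each tested non-coding transcript opposite a member, by class (circles), and of the 31 members they overlap (squares). The dotted line marks 2-fold, and the members lie between −0.05 and 0.77. The transcripts reach 5.05 in CUT284, which had only 1.77 and 0 normalized read counts in WT. CUTs are high in *rrp6*Δ by their definition.

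Members with such a transcript had a median log2 fold change of 0.25 and those without one 0.17. The medians over all protein-coding genes were 0.26 in both groups. By adjusted p, 13 of the 31 with and 8 of the 30 without were higher, beside 46.7% of protein-coding genes. These genes were not compared by a test.

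Per length, the members were expressed above most genes. Their median density was 1.74 normalized read counts per nt, beside 1.04 over protein-coding genes and 71.6 over the 129 genes of cytoplasmic ribosomal proteins, and 56 of 61 lay above the median of protein-coding genes. The box H/ACA and box C/D proteins were among the highest: *nop10* had a density of 21.2 in *rrp6*Δ and 19.4 in WT, *nop56* 12.5 and 12.2, and *nop58* 10.9 and 9.87. The rest of the snoRNP and IMP class lay near the member median. As the mean of all libraries *rrp9* had 1.97, *imp4* 1.94 and *imp3* 1.70. *nog2* had 23.9 in *rrp6*Δ and 14.0 in WT over the whole gene, above *nop10* in *rrp6*Δ and below it in WT, but at 6.79 over its coding sequence as the mean of all libraries. The lowest were *rrp1* (0.25), *rrp2* (0.408) and *imp2* (0.561), all from the 4 genes outside ribosome biogenesis, and *nop8* (0.825), as the mean of all libraries.

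Their promoters differed from those of ribosomal protein genes in the letters of the HomolD and HomolE boxes. The window was 250 bases before to 50 after the start of each gene in the table, read on both strands from ASM294v3. The HomolD box (CAGTCACA), a core element of fission yeast ribosomal protein promoters, occurred in 0 of 61 members, in 72 of 129 ribosomal protein genes (55.8%) and in 2.48% of all 5117 promoters. The centre of the HomolE box (CCCTACCC) occurred in 0 members, in 45 ribosomal protein genes (34.9%) and in 1.54% of all. None of the 4 motifs searched contains another.

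Motifs of ribosome biogenesis genes in budding yeast were searched likewise. The PAC core (GATGAG) was present in 3 members (4.92%), *imp1*, *nop16* and *rrp40*, against 8.91% of all promoters. The RRPE core (AAAATTTT) was present in 6 (9.84%), *imp3*, *nop2*, *rrp14*, *rrp2*, *utp22* and *utp7*, against 8.42% of all. Among ribosomal protein promoters the shares were 6.98% for the PAC core and 7.75% for the RRPE core. All counts are of letters matched in a window and not of binding sites.

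The other lists of the pathway were read against the 46.7% of protein-coding genes that were higher and the 7.08% that were lower by adjusted p. Their differences from the members were not tested. Of 34 further small subunit genes 13 rose and none fell by adjusted p, with a median of 0.24. Of 43 further large subunit genes 13 rose and 1 fell, with a median of 0.20. The one that stood out was *dbp2*, a DEAD-box RNA helicase, with 25454 and 27520 in *rrp6*Δ, against 13216 and 16476 in WT (0.84, standard error 0.11, adjusted p = 2.4e-06).

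RNA polymerase I and its factors, which transcribe the pre-rRNA, gave 5 higher and 2 lower of 18, with a median of 0.07. The 2 that fell were *reb1* (−0.30) and *rpa43* (−0.29). Of 8 further snoRNP genes none rose and *cbf5*, the pseudouridine synthase, fell (−0.22). None of these 103 genes was called by more than 2-fold. The ribosomal protein genes, which supply the material that the members assemble, had a median of −0.06, with 10 higher and 26 lower of 129, and 1 was called higher by more than 2-fold. As a share of protein-coding reads they took 20.05% and 19.4% in *rrp6*Δ, against 19.8% and 20.7% in WT, and the strains overlapped.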

How the data were processed

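Total RNA of 2 *rrp6*Δ and 2 WT cultures was sequenced as strand-specific, rRNA-depleted, paired-end libraries with ERCC spike-in. The authors mapped reads with TopHat and normalized densities on the spike-in; they deposited the values used here, a normalized signal per transcript (read count and density). For RNA-seq with another spike-in the study names HTSeq and an earlier release of the ASM294 assembly. Its account of these libraries names TopHat and the reference genome only, so the read counter and release of this table are not given. Each value was a whole number of reads times a library factor (0.820, 1, 0.884 and 0.729 for *rrp6*Δ 1 and 2 and WT 1 and 2; 100% whole within 1e-06), so reads were recovered. The 4 pooled columns and 28 repeated pseudogene entries were left out.

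Log2(value + 0.729) was fitted with limma 3.58.1 (intensity trend) in R 4.3.3 across all 11227 transcripts that passed filterByExpr of edgeR 4.0.16 (minimum count 10), with Benjamini-Hochberg adjustment over all of them. All 61 members passed. Fold changes are on this log2 scale. Coding sequences, pieces and the parts outside them were fitted in place of the genes in the same table. DESeq2 1.42.0, edgeR, other scalings, filters, pseudocounts and left-out libraries were alternatives. On simulated counts of 11227 transcripts the fit called 50 of 50 at 2.5-fold by both thresholds. At 1.5-fold it called 31 of 50 by adjusted p. By both thresholds it called 0 of 50 there, which the fold threshold sets in advance, since 1.5-fold lies below it.

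Members and lists were chosen with earlier results of these data known. Values per library are given for any member past both thresholds and, in each class of at least 3, for the highest and lowest change and the highest density. Table coordinates were checked against ASM294v3: 5115 of 5118 coding sequences opened with ATG, and all 61 members. Same-numbered libraries did not deviate together (r = 0.011 over transcripts), so the numbers were not used as pairs. With 2 pairs this cannot exclude a pairing, and a replicate block gave 28 members higher by adjusted p, against 21. P-values rest on 2 cultures a strain, and the spread of each gene was drawn towards the trend over all transcripts. Without that trend 1 member was higher by adjusted p, against 21.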

Additional observations from a re-analysis of the deposited data

How the results depend on the processing

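None of the 61 members was called higher or lower by more than 2-fold by any scaling, filter, pseudocount, tool or left-out library tried. Over the coding sequence, a setting chosen after seeing the data, 1 was higher (*nog2*). The median log2 fold change of members was −0.34 under TMM on all transcripts, −0.046 under TMM on coding genes, −0.038 after quantile normalization and −0.47 in DESeq2 with its own size factors. By adjusted p, these gave 0 higher and 50 lower, 5 and 9, 3 and 10, and 0 and 55 members. Library totals gave 12 higher, limma without the trend 1 higher and 0 lower, and an adjusted p under 0.01 gave 10 higher and 0 lower. With the replicate block 28 were higher, against 21, and 1 lower, and no call of a named gene changed. Leaving out 1 library gave 5 to 40 members higher (12 without WT replicate 1, 40 without WT replicate 2, 12 without *rrp6*Δ replicate 1 and 5 without *rrp6*Δ replicate 2) and 0 to 1 lower. The median was 0.12 to 0.32 in these. The cause was not tested.

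Of the transcripts on the opposite strand, 46 were called higher, against 29 with TMM factors over all transcripts, 6 with quantile normalization, 25 with DESeq2 and its own size factors and 24 at a minimum count of 50. Leaving out 1 library gave 40 to 46. Without CUTs the count was 23, against 13, 1, 10 and 10 in these settings. It was 9 without the transcripts that overlap a CUT on their strand. The settings for opposite-strand transcripts, snR191 and parts of genes were chosen after seeing the data, apart from the overlap of at least 50%.

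Named genes whose sign differed were these. With TMM factors over all transcripts the log2 fold change was −0.17 for *utp15*, −0.40 for *utp8*, *utp10* and *nop10*, −0.29 for *utp13*, −0.37 for *utp21* and *nop2*, −0.30 for *utp22* and *imp1*, −0.49 for *rrp36* and *imp2*, −0.39 for *rrp7* and *rrp41*, −0.23 for *rrp9* and *rrp43*, −0.51 for *imp3*, −0.16 for *utp16*, −0.082 for *rrp45*, −0.080 for *rrp2* and −0.0076 for *ebp2*. Taking TMM from coding genes alone, it was −0.11 for *utp8* and *utp10*, −0.079 for *utp21*, −0.0058 for *utp22*, −0.20 for *rrp36* and *imp2*, −0.092 for *rrp7*, −0.21 for *imp3*, −0.10 for *nop10* and *rrp41*, −0.0043 for *imp1* and −0.073 for *nop2*. Quantile normalization gave −0.055 for *utp8*, −0.00018 for *utp13*, −0.025 for *utp21*, −0.37 for *rrp36*, −0.20 for *rrp7*, −0.33 for *imp3*, −0.014 for *nop10*, −0.22 for *rrp41*, −0.0071 for *rrp43*, −0.29 for *imp2* and −0.0038 for *nop2*. With library totals it was −0.018 for *rrp36*, −0.035 for *imp3* and −0.017 for *imp2*. DESeq2 with its own size factors gave −0.29 for *utp15* and *utp16*, −0.52 for *utp8*, *utp10*, *rrp7* and *nop10*, −0.41 for *utp13*, −0.49 for *utp21* and *nop2*, −0.42 for *utp22* and *imp1*, −0.61 for *rrp36* and *imp2*, −0.35 for *rrp9* and *rrp43*, −0.63 for *imp3*, −0.20 for *rrp45* and *rrp2*, −0.51 for *rrp41*, −0.13 for *ebp2* and −0.0079 for snR191. Over the coding sequence it was −0.012 for *imp3* and −0.15 for *nop2*. Leaving out 1 library gave −0.10 to 0.20 for *rrp36*, −0.090 to 0.40 for *rrp7*, −0.083 to 0.15 for *imp3*, −0.032 to 0.32 for *nop10* and −0.013 to 0.11 for *imp2*, where the lowest values came without WT replicate 1, and for *imp2* without *rrp6*Δ replicate 2.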
